A study of Saccharomyces cerevisiae with 116 samples.

Results

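The 9 genes described here encode the enzymes of lower glycolysis in budding yeast (Saccharomyces cerevisiae), from glyceraldehyde-3-phosphate to pyruvate. They were chosen by their systematic names, and all 9 were found among the 7126 features of the count files. They are TDH1 (YJL052W), TDH2 (YJR009C) and TDH3 (YGR192C) for glyceraldehyde-3-phosphate dehydrogenase, PGK1 (YCR012W) for phosphoglycerate kinase, GPM1 (YKL152C) for phosphoglycerate mutase, ENO1 (YGR254W) and ENO2 (YHR174W) for enolase, and CDC19 (YAL038W) and PYK2 (YOR347C) for pyruvate kinase. All 9 passed the filter on low counts in every comparison.

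RNA was sequenced from diploid mutation accumulation lines, which are carried through repeated bottlenecks so that chromosome gains and losses are kept, to compare aneuploid lines with lines that kept 2 copies of each chromosome. The HH lines descend over 2063 generations from a homozygous S288C-derived diploid that carries ho and mutations named ade2 and lys2-801, a his3-delta-D200 deletion, and alleles of LEU2 and URA3 (ura 3-52). The Hh lines descend over 2108 generations from a heterozygous ho, ura3 diploid made from derivatives of the oak strain YPS606 and of DBVPG1106. The 116 libraries are 3 colonies of each of 10 aneuploid and 11 euploid HH lines and of 10 aneuploid and 5 euploid Hh lines, 3 libraries of the HH ancestor in run 1, 2 in run 2, and 3 of the Hh ancestor. Each line derives from a single accumulated genotype, so colonies of a line are not separate aneuploidies. By the labels, cultures were started from a 24 h preculture, grown for 6 h in medium with 2% glucose at 30 °C and taken in log phase. The same medium, temperature and times are given for every group. Among HH lines, 14 carry SC and 7 carry X in their library names, run 1 of the ancestor also carries SC, and X lines were set beside run 2 by assumption.

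Libraries held 4129372 to 12148296 reads in genes. HIS3 had no read in 61 of 68 HH libraries and at most 26, against 467 to 2504 in Hh libraries, and URA3 had at most 2 reads in any Hh library and at least 112 in every HH library. The chromosome levels of 6 libraries go against their label: the 3 of HH152 (labelled with 3 copies of VII) and replicate 1 each of HH123, Hh11 and Hh59. Class comparisons, paralog ratios and slopes that include them are also given without them. The line comparisons were repeated without replicate 1 of HH123, Hh11 and Hh59. HH152 was kept in them, and no call among the 9 genes changed.

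Lower glycolysis yields the ATP of fermentation, and in the same steps run backwards, up to phosphoenolpyruvate, it serves gluconeogenesis. In yeast several steps are shared by paralogs with unlike regulation. TDH3 is known as the main dehydrogenase isozyme of growing cells and TDH1 as the one that cells make on entry into stationary phase. ENO2 is the enolase induced by glucose, while ENO1 is the one used more during gluconeogenesis. CDC19 is the main pyruvate kinase, and PYK2 is a minor, glucose-repressed form. The coding sequence of each of the 9 genes lies in 1 exon (build R64). TDH1 is at chrX:338271-339269 on the plus strand and TDH2 at chrX:453683-454681 on the minus strand. TDH3 is at chrVII:882812-883810 on the minus strand and ENO1 at chrVII:1000927-1002240 on the plus strand. ENO2 lies at chrVIII:451327-452640 and CDC19 at chrI:71786-73288, both on the plus strand. PGK1 is at chrIII:137746-138996 on the plus strand, GPM1 at chrXI:163642-164385 on the minus strand and PYK2 at chrXV:984942-986462 on the minus strand.

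The paralogs are close enough in sequence that reads of 75 bases cannot always be placed. Within the coding sequences TDH2 and TDH3 were identical at 95.8% of positions, ENO1 and ENO2 at 94.8%, TDH1 and TDH2 at 90.2%, TDH1 and TDH3 at 88.9%, and CDC19 and PYK2 at 67.1%. The longest stretch without a difference was 173 bases between TDH2 and TDH3 and 112 between ENO1 and ENO2. Stretches of 75 bases, which is 1 read, are printed here because they decide which reads can tell the isozymes apart. They are R64 coding sequence, read 5′ to 3′ along the gene, and capitals mark each base that differs from the first sequence of its set. At coding bases 47 to 121 the 3 dehydrogenase genes differ, TDH2 from TDH3 at 12 bases and TDH1 at 20.
TDH3: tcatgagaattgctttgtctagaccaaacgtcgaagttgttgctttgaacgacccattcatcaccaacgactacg
TDH2: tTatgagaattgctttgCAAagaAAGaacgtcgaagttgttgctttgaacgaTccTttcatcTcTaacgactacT
TDH1: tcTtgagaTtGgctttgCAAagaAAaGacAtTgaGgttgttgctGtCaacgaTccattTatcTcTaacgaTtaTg
At coding bases 355 to 429, by contrast, TDH2 matches TDH3 at every base while TDH1 differs at 17, so that a read from here separates TDH1 alone.
TDH3: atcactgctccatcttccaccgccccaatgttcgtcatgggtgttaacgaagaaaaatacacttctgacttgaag
TDH2: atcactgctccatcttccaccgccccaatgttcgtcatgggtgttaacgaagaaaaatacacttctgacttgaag
TDH1: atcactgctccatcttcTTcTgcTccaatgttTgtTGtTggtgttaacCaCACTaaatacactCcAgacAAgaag
The first 75 coding bases of both enolase genes are the same.
ENO1 and ENO2: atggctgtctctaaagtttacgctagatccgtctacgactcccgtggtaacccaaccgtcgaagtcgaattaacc
At coding bases 325 to 399 ENO2 differs from ENO1 at 13 bases.
ENO1: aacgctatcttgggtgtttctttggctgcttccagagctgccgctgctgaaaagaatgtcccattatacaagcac
ENO2: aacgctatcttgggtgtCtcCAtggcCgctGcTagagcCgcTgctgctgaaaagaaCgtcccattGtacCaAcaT
Of the 75-base windows of each coding sequence, 81.1% occur once in the genome for TDH2, 87.4% for TDH3, 90.2% for TDH1 and 89.3% for each enolase gene, and 100% do for PGK1, GPM1, CDC19 and PYK2. Counts of the TDH and ENO genes therefore rest on part of their length, and the alleles of the Hh strains can differ from the R64 sequence shown here. How these affected the counts was not tested. Non-unique reads made up 14.04% to 68.4% of HH libraries and 7.12% to 49.3% of Hh libraries.

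Levels across genes are given as counts scaled to the reads in genes of the library (CPM) and divided by the coding length in kilobases, as the median over ancestors and lines. In HH, the 9 genes ran from the top of the transcriptome to its middle. TDH1 stood highest with 27946 CPM per kb, which ranks 1 of 6086 genes, followed by TDH3 with 21963, which ranks 4, and ENO1 with 11293, which ranks 10. PGK1 (3108), TDH2 (3089), ENO2 (2268), GPM1 (2147) and CDC19 (1235 CPM per kb) lay lower, and PYK2 was far below at 36.3. The order of PGK1, TDH2, ENO2 and GPM1 is not resolved, since their ranges over the 23 HH groups overlap, from 1157 to 8165 CPM per kb for TDH2 and from 1819 to 6639 for PGK1.

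In Hh the order was different and the levels lower. TDH3 led with 5934 CPM per kb, which ranks 12, followed by ENO1 with 1926, TDH1 with 1287, TDH2 with 936 and PGK1 with 758. GPM1 (374), ENO2 (314), CDC19 (111) and PYK2 (44.2 CPM per kb) were lowest. PYK2, the minor kinase, was the one of the 9 whose medians were closest between the experiments. Together the 9 genes took 2.28% to 17.9% of the reads in genes of an HH library and 0.146% to 3.48% of those of an Hh library. The authors' FPKM values gave the same order of TDH, ENO and PYK genes within each experiment, while GPM1 alone moved: its median was 13219 FPKM in HH against 4229 for PGK1, and its ratio of FPKM to CPM per kb was 5.73 times that of the median gene, a ratio reached by 0.376% of 5059 genes. The cause of that gap was not tested.

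**Figure D1:**
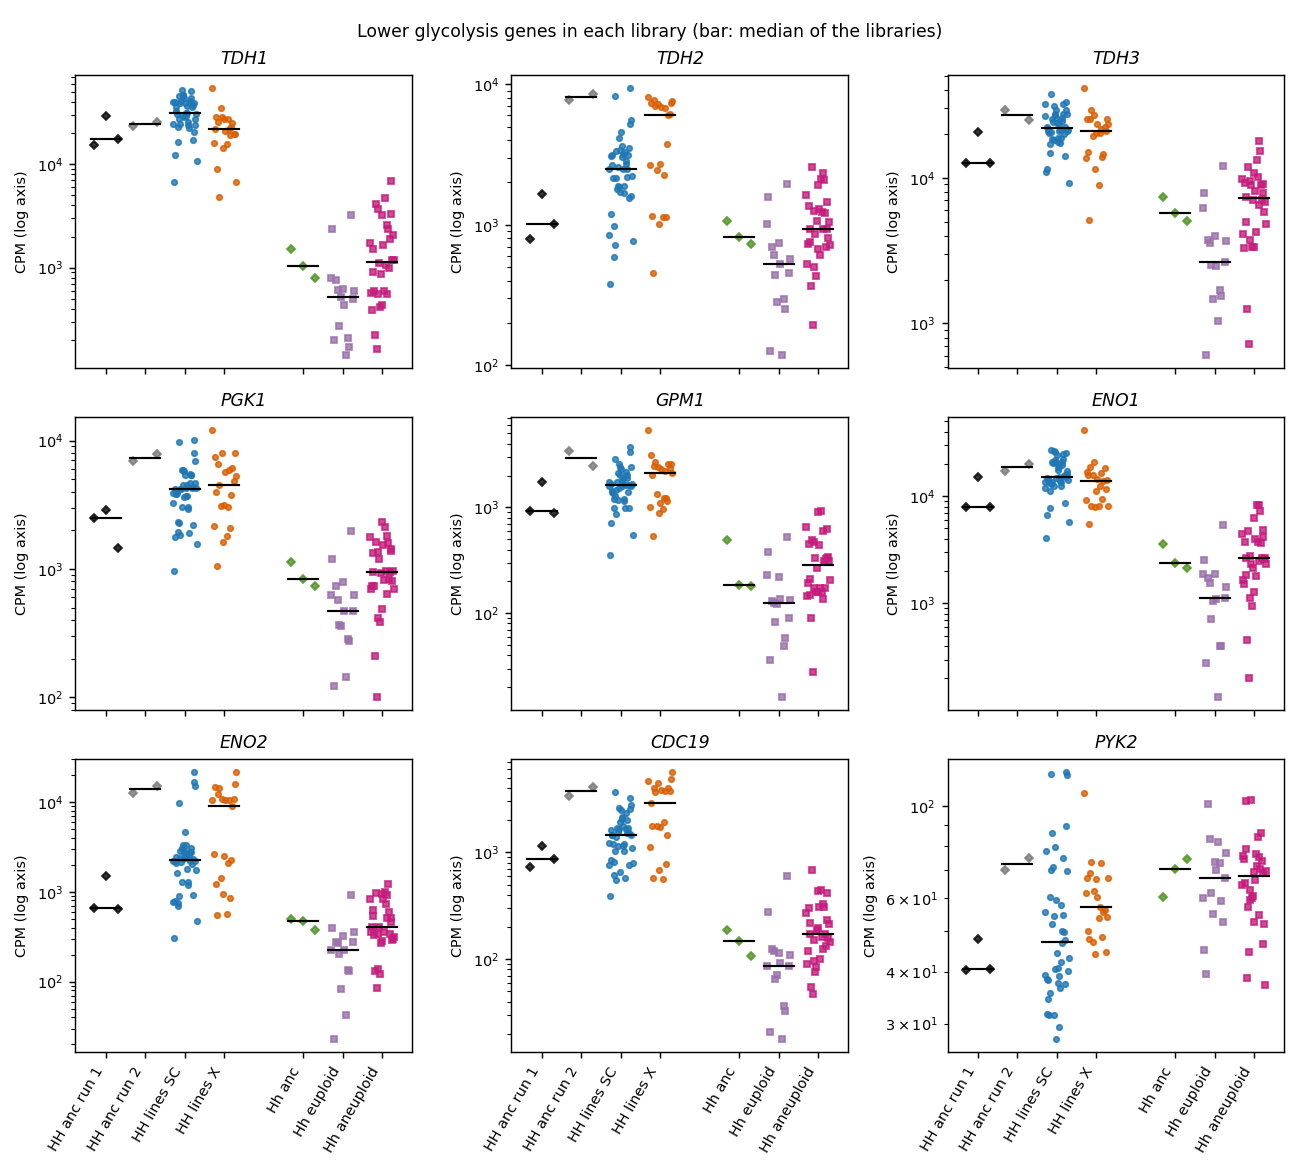
CPM of each of the 9 genes in every library, on log axes, by ancestor run and line set, with points for libraries and bars for medians. Medians of Hh libraries lie below those of HH libraries for every gene but PYK2, with some overlap of single libraries, and ENO2 and TDH2 spread most widely among the HH lines named X.

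The paralogs did not hold fixed proportions. Among dehydrogenases, TDH1 exceeded TDH2 in 66 of 68 HH libraries and in 29 of 48 Hh libraries, and it exceeded TDH3 in 56 of 68 HH libraries and in 0 of 48 Hh libraries. TDH3 exceeded TDH2 in every library of both experiments. The ratio of TDH3 to TDH1 had a median of 0.744 in HH libraries (0.528 to 5.99) and of 5.92 in Hh libraries (1.30 to 11.6). ENO1 exceeded ENO2 in 64 of 68 HH libraries and in all 48 Hh libraries, and the 4 exceptions were HH108 replicate 1, HH112 replicate 1 and HH152 replicates 2 and 3. The ENO1 to ENO2 ratio ranged from 0.375 to 15.3 in HH and from 2.42 to 12.9 in Hh. CDC19 exceeded PYK2 in all 68 HH libraries, with a median ratio of 31.9, and in 43 of 48 Hh libraries, with a median ratio of 1.74. The 5 libraries with more PYK2 were the 3 of Hh5, Hh1 replicate 3 and Hh11 replicate 3.

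**Figure D2:**
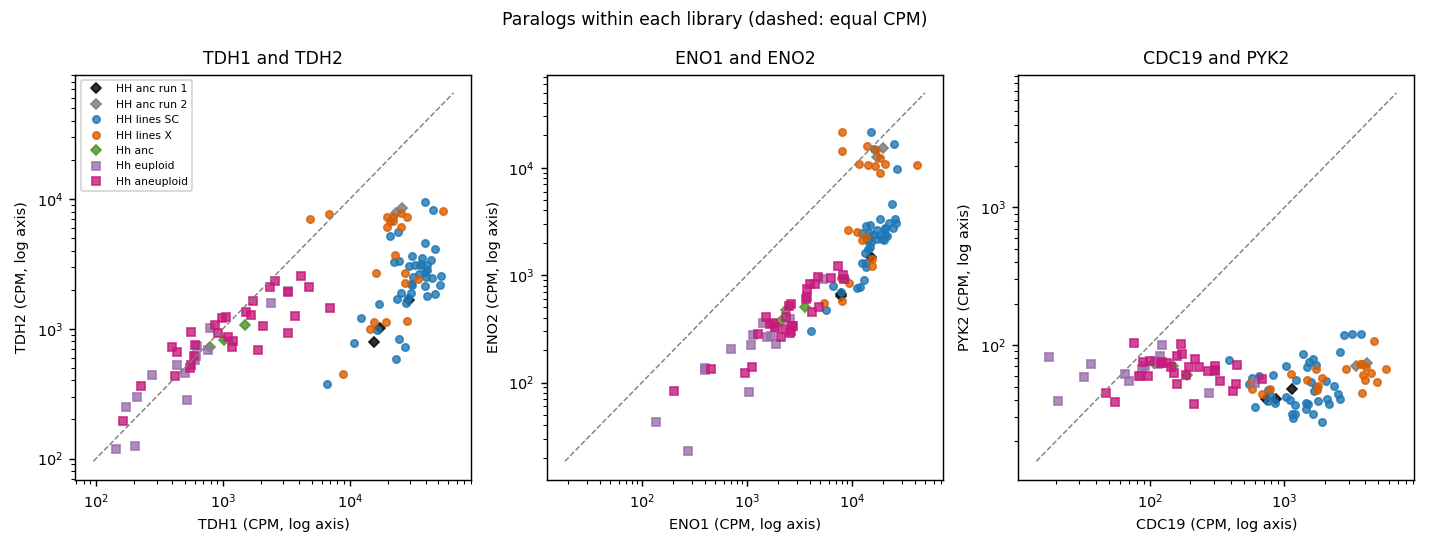
CPM of TDH2 against TDH1, ENO2 against ENO1 and PYK2 against CDC19, 1 point per library, on log axes with a dashed line at equal CPM. All Hh libraries hold more ENO1 than ENO2, with ratios of 2.42 to 12.9, some HH libraries reach or cross the line of equal CPM, and PYK2 stays between 27.6 and 121 CPM over the whole range of CDC19.

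The ancestor libraries, which carry no accumulated mutations, were compared between runs first. In run 1 of the HH ancestor ENO2, the glucose-induced enolase, had 665, 1481 and 639 CPM in replicates 1 to 3, and in run 2 it had 12609 and 15162. TDH2 had 796, 1662 and 1009 CPM in run 1 and 7771 and 8544 in run 2. CDC19 had 724, 1147 and 867 CPM in run 1 and 3399 and 4139 in run 2. For these 3 genes the runs do not overlap. TDH1 had 15413, 29433 and 17399.9 CPM in run 1 and 23258 and 25715 in run 2, and ENO1 had 7865, 15113 and 7852 in run 1 and 17226 and 19980.4 in run 2. TDH1 of run 2 lies within the range of run 1, while ENO1, and likewise TDH3, PGK1, GPM1 and PYK2, do not overlap between the runs. The share of all genes without overlap was not counted. By the quasi-likelihood test of edgeR, with Benjamini-Hochberg adjustment over 6046 genes, 5 of the 9 genes were higher in run 2, where 27% of all genes were higher, 24.3% lower and 51.4% changed. ENO2 rose by 3.63 ± 0.41 (log2, SE, adjusted p = 3.87e-05), TDH2 by 2.56 ± 0.35 (adjusted p = 1.34e-04), CDC19 by 1.79 ± 0.31 (adjusted p = 5.97e-04), PGK1 by 1.44 ± 0.34 (adjusted p = 0.00421) and PYK2 by 0.51 ± 0.17 (adjusted p = 0.0254). TDH1 (-0.02 ± 0.40), TDH3 (0.57 ± 0.35), ENO1 (0.59 ± 0.39) and GPM1 (1.04 ± 0.47) did not pass. The fold changes of ENO2 and TDH2 were thus larger than those of ENO1 and TDH1, but the difference between paralogs was not itself tested here. Without replicate 2 of run 1, the count rose from 5 to 8. With total-count scaling the median over all genes was 0.26, 7 of the 9 passed as higher, and the higher share of all calls was 68.7% in place of 52.6%.

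The runs also differed in genes outside lower glycolysis. PCK1, the phosphoenolpyruvate carboxykinase of gluconeogenesis, had 1411, 2178 and 1347 CPM in run 1 and 93.9 and 96.5 in run 2. Of the 5 genes listed for gluconeogenesis and anaplerosis, 4 were lower in run 2 and 1 was higher, with a median of -2.60 (log2) against 0.02 for all genes. Of 8 genes of ethanol formation 4 were higher and 2 lower, among them ADH1, the fermentative alcohol dehydrogenase (3.83), and ADH2, the glucose-repressed one (-2.91). All 4 genes of the glycerol branch were higher. Of 4 regulators, GCR1, an activator of glycolytic genes, was higher (1.62 ± 0.22, edgeR adjusted p = 1.39e-04) and RAP1, its partner at glycolytic promoters, was lower (-0.51 ± 0.18, edgeR adjusted p = 0.0354). Non-unique reads made up 16.8% to 21.0% of run 1 libraries and 33.9% and 40.4% of run 2 libraries, and the part of run, culture or read placement in these differences was not tested.

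Gcr1 binds CTTCC, and the occurrences of CTTCC (either strand, so also GGAAG) were counted in the 500 bases before each start codon in R64 to set the promoters of the isozymes side by side. PGK1 had 4, GPM1 and CDC19 3 each, TDH1, TDH2, ENO2 and PYK2 2 each, ENO1 1 and TDH3 0. Of 6002 promoters of that length, 66.1% had at least 1, 30.0% at least 2, 10.2% at least 3 and 3.25% at least 4. The windows of 100 bases that hold most of them are printed for both enolases, PGK1 and CDC19, with the motif in capitals. They cover bases -483 to -384 before the start codon of ENO1 (chrVII:1000444-1000543), -170 to -71 of ENO2 (chrVIII:451157-451256), -456 to -357 of PGK1 (chrIII:137290-137389) and -312 to -213 of CDC19 (chrI:71474-71573), all on the plus strand.
ENO1: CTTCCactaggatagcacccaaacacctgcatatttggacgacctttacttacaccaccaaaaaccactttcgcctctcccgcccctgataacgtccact
ENO2: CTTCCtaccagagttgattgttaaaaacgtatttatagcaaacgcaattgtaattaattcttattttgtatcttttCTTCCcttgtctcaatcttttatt
PGK1: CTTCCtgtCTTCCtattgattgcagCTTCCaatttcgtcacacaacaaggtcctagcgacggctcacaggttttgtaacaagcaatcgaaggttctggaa
CDC19: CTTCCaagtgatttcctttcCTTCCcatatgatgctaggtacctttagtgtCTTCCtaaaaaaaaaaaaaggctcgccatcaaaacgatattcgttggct
A match to these letters is a description of the reference sequence. Binding was not measured.

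The Hh ancestor had lower levels of 8 of the 9 genes than the HH ancestor in run 2. TDH1 had 1507, 1027 and 786 CPM in the Hh ancestor, and ENO2 had 501, 469 and 376. CDC19 had 189, 148 and 107 CPM, while PYK2 had 60.3, 70.4 and 74.5 against 70.3 and 74.8 in run 2. For the first 3 genes no Hh value comes near those of run 2, and for PYK2 the groups overlap. By edgeR, 8 genes were lower in Hh, where 25.2% of 6046 genes were lower, 24.8% higher and 50% changed. ENO2 (-4.79 ± 0.42, adjusted p = 4.08e-06), CDC19 (-4.50 ± 0.33, adjusted p = 1.01e-06) and TDH1 (-4.30 ± 0.42, adjusted p = 8.65e-06) fell most. GPM1 (-3.19), TDH2 (-3.06), PGK1 (-2.86), ENO1 (-2.63) and TDH3 (-1.999 ± 0.35, adjusted p = 6.58e-04) fell less, and PYK2 (0.07 ± 0.17, adjusted p = 0.737) did not pass. With total-count scaling the same number passed as lower, and the higher share of all calls was 38.1% in place of 49.6%.

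Set against run 1 instead, 7 genes were lower, where 30.7% of genes were lower and 60.8% changed. TDH1 fell as far (-4.33 ± 0.41, edgeR adjusted p = 5.11e-06), but ENO2 fell by 1.16 and TDH2, at -0.50 ± 0.31, no longer passed (edgeR adjusted p = 0.185). PYK2 was higher in Hh than in run 1 (0.58 ± 0.15, edgeR adjusted p = 0.00612). Both comparisons share the Hh ancestor libraries. Against run 2, 7 of 8 upper glycolysis genes were lower and none higher, with HXK2, the main glucose kinase, at -5.23. PCK1 was 7.63 ± 0.46 higher (edgeR adjusted p = 3.14e-07), with 13823, 18308 and 18536 CPM, and 4 of 5 genes of its list were higher. GCR1 was lower (-2.05) and RAP1 and GCR2 were higher (0.82 and 0.42), while TYE7 (-0.48, edgeR adjusted p = 0.0822) did not pass. Genotype and run cannot be told apart in the comparison of experiments.

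Within the HH experiment the colonies of 1 line could differ as much as the ancestor runs. In HH50, a euploid line, ENO2 had 1227, 548 and 12210.5 CPM in replicates 1 to 3, while ENO1 had 15719, 5471 and 18572. PCK1 in the same libraries had 292, 463 and 141 CPM, and non-unique reads made up 22.6%, 18.7% and 40.0%. The third colony was high in ENO2 and low in PCK1. In HH4, also euploid, ENO2 had 758, 895 and 9694 CPM and TDH2 had 590.1, 721 and 8277, with PCK1 at 968, 926 and 283. In HH112 (3 copies of XVI), replicate 1 joined 14454 CPM of ENO2 to 4833 of TDH1, the lowest TDH1 value among HH libraries, whereas replicate 2 had 1425 of ENO2 and 34790.5 of TDH1. ENO2 and TDH1 thus moved in opposite directions between those colonies.

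The spread of ENO2 between colonies (SD of log2 CPM within a line) was 1.73 among HH lines named X, larger than for 98.9% of genes, and 0.88 among those named SC, larger than for 99.3%. TDH2 followed with 1.26 and 0.85. TDH3 was steadier in HH, with 0.66 and 0.42, and PYK2 had 0.30 and 0.37, against medians over genes of 0.49 and 0.31. Among HH lines named X the colony numbered 3 held the highest ENO2, TDH2 and CDC19 in 6 of 7 lines each. It held the highest PGK1 and ENO1 in 5, TDH3, GPM1 and PYK2 in 4, and TDH1 in 1. Over all 21 HH lines, the colony with the most ENO2 was the one with the least PCK1 in 14 lines and the one with the most PCK1 in 3. The same count was 13 lines for PGK1, 12 for TDH2 and ENO1, 11 for TDH3 and CDC19, 10 for PYK2, 9 for GPM1 and 7 for TDH1, where the median over 5435 genes was 7. In bulk RNA, a higher level in every cell and a larger share of cells with a high level cannot be told apart.

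**Figure D3:**
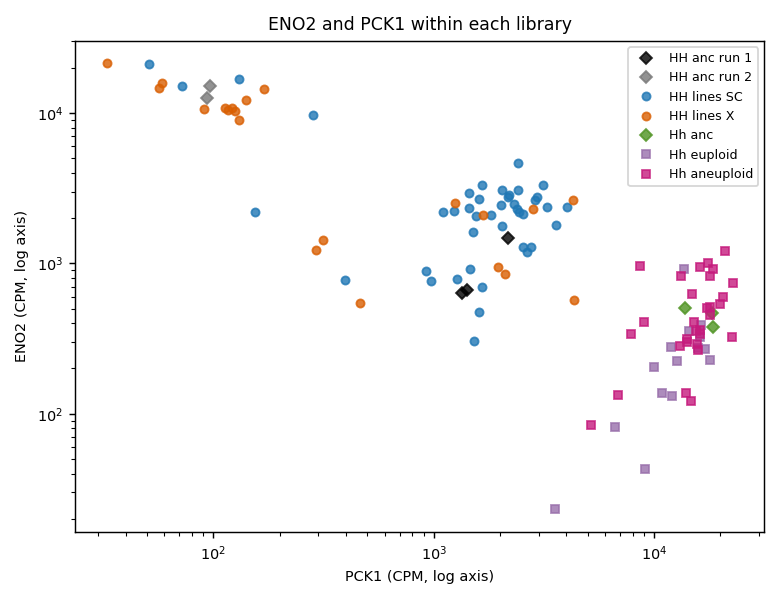
CPM of ENO2 against CPM of PCK1, 1 point per library, on log axes, by ancestor run and line set. Run 2 of the HH ancestor and many HH colonies lie at the top left, run 1 near 1411 CPM of PCK1, and Hh libraries, with 3559 CPM of PCK1 or more, at the lower right, where ENO2 and PCK1 do not run opposite to each other.

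In Hh the spread between colonies covered nearly the whole set. Its SD was 1.22 for TDH1, 1.10 for GPM1, 1.03 for CDC19, 1.02 for ENO1, 0.96 for TDH3 and ENO2, and 0.94 for TDH2 and PGK1, each larger than for at least 97% of genes, but 0.30 for PYK2, against a median of 0.36. In Hh8 (4 copies of XVI) TDH1 had 225, 4122 and 164 CPM, ENO1 had 454, 4743 and 204, and CDC19 had 54.9, 687 and 47.4. Replicate 2 was high in all 3. Its ENO2 of 957 CPM was also above the 133 and 84.0 of the other colonies, so both enolases moved together here. PCK1 was 6850.3, 8647 and 5172 CPM, highest in the same colony. Over the 15 Hh lines, the colony with the most ENO2 was the one with the least PCK1 in 3 lines and the one with the most in 4, where the medians over genes were 6 and 3. The colony numbered 3 was highest in 1 of the 15 lines for TDH1, TDH2, TDH3, PGK1 and ENO1. It was highest in 2 for GPM1 and CDC19, 4 for ENO2 and 7 for PYK2. The spread between colonies thus partly follows the replicate number, and whether handling shared by a number plays a part was not tested.

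Aneuploid and euploid HH lines were compared on the counts of the colonies summed per line. ENO2 ran from 1493 to 17507 CPM over the 10 aneuploid lines, with a median of 3697, and from 1181 to 4574 over the 11 euploid lines, with a median of 2471. TDH2 ran from 1555 to 7043 CPM (median 3574) in aneuploid and from 1334 to 3113 (median 2496) in euploid lines. For TDH2, 6 of 10 aneuploid lines lay above every euploid line, for CDC19 5 and for ENO2 4, and in each case the groups overlapped. For TDH1 no aneuploid line lay above every euploid line. The share of all genes with such separation was not counted. These counts and medians pool lines named SC and X, and 5 of 10 aneuploid but 2 of 11 euploid lines are named X. Library medians in X and SC lines were 6056 and 2503 CPM for TDH2 and 8947 and 2265 CPM for ENO2. By edgeR, 0 of the 9 genes and 0% of 6268 genes passed. At an unadjusted p under 0.05 there were 614 genes. DESeq2 called 1 gene, not one of these. ENO2 was at 1.11 ± 0.40 (adjusted p = 0.502), TDH2 at 0.60 ± 0.23 (adjusted p = 0.502) and the other 7 between -0.14 and 0.38. The median of the 9 was 0.25, beside 0.01 over all genes. Without HH108 the value of ENO2 was 0.27 ± 0.33. Without the libraries in doubt it was 1.02 ± 0.38, that of TDH2 was 0.58 ± 0.22, and again 0 genes passed.

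In Hh the same comparison gave higher values in aneuploid lines for all 9 genes, of which 2 passed. TDH3 ran from 4335 to 14278 CPM (median 7235) over 10 aneuploid lines and from 1415 to 6327 (median 3221) over 5 euploid lines. GPM1 ran from 187 to 466.3 CPM (median 312) in aneuploid and from 40.0 to 261 (median 154) in euploid lines. The groups overlapped for both: 6 aneuploid lines were above every euploid line for TDH3 and 7 for GPM1, and 3 of 5 euploid lines were below every aneuploid line for each. How many of all genes separate the lines as far was not counted. The euploid line Hh5 was lowest and Hh9 highest of the euploid lines in all 8 genes but PYK2. By edgeR, TDH3 was higher by 1.205 ± 0.36 (adjusted p = 0.0439) and GPM1 by 1.21 ± 0.36 (adjusted p = 0.0417), so that 2 of 9 genes were higher where 4.22% of 6189 genes were higher, 5.66% lower and 9.87% changed. ENO1 (1.35 ± 0.45, adjusted p = 0.0612), TDH1 (1.29 ± 0.50, adjusted p = 0.0954), ENO2 (1.15 ± 0.40, adjusted p = 0.0677), PGK1 (0.98 ± 0.32, adjusted p = 0.0602), TDH2 (0.93 ± 0.33, adjusted p = 0.0705), CDC19 (0.89 ± 0.38, adjusted p = 0.121) and PYK2 (0.22 ± 0.16, adjusted p = 0.365) did not pass. The median of the 9 was 1.15, beside 0.04 over all genes. With total-count scaling the median over all genes was -0.13 and that of the 9 was 0.96. TMM factors from unaltered chromosomes raised the higher share of calls from 42.7% to 55.4%, and total counts lowered it to 12.7%, while TDH3 and GPM1 passed as higher in each.

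These 2 calls rest on single lines. Without Hh2, Hh3, Hh5, Hh7, Hh11, Hh49, Hh59, Hh61, Hh76 or Hh77 no gene of the 9 passed. Without Hh8 6 passed and without Hh9 7, and genes called in all ran from 26 to 1547 over the fits without 1 line. Without the libraries in doubt none of the 9 passed and 177 genes did in all, with TDH3 at 1.21 ± 0.36 (edgeR adjusted p = 0.0645) and GPM1 at 1.12 ± 0.38 (edgeR adjusted p = 0.0878). DESeq2 and limma-voom each called 6 of the 9. Single libraries fitted with limma and the line as random effect called 6, and 7 with the replicate number as a block. Genes called in all also rose with DESeq2 and from single libraries, as given below.

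**Figure D4:**
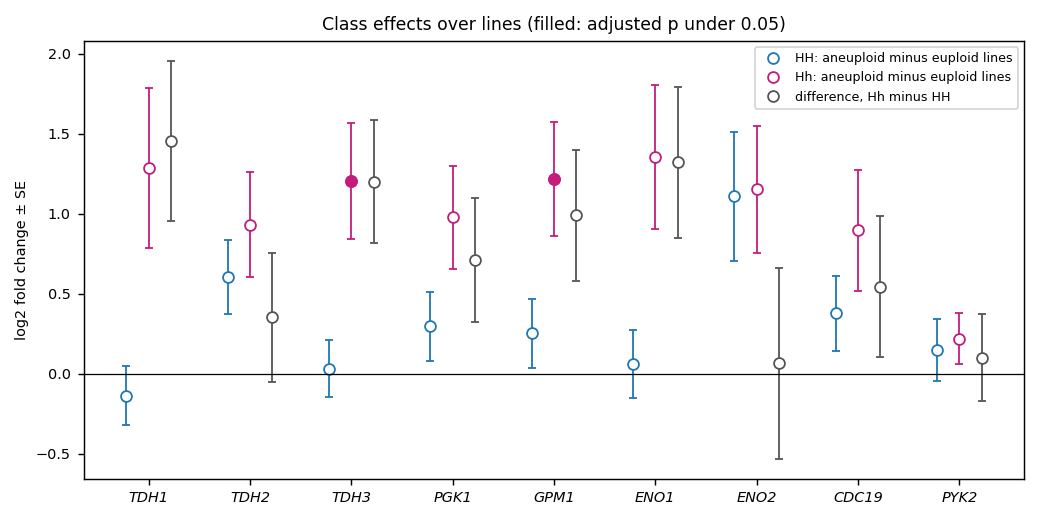
Log2 fold change of aneuploid over euploid lines with its SE for each gene in HH and in Hh, and the difference of both effects, with filled points for an adjusted p under 0.05. TDH3 and GPM1 in Hh are the filled points, and ENO2 and TDH2 are the highest in HH.

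Other genes of the pathway called in Hh were TPI1, the triose phosphate isomerase just upstream (0.74 ± 0.19, edgeR adjusted p = 0.0298), GPM2, a homologue of GPM1 whose product is not thought to be an active mutase (0.94 ± 0.24, edgeR adjusted p = 0.0305), ADH2 (2.04 ± 0.60, edgeR adjusted p = 0.0420), and GPD2 and GPP1 of glycerol synthesis (0.74 and 1.06). PDC5, a pyruvate decarboxylase, was lower (-1.01 ± 0.28, edgeR adjusted p = 0.0356). These are 1 of 8 upper glycolysis genes, 1 of 3 minor homologues tested, 2 of 8 genes of ethanol formation, 2 of 4 of the glycerol branch, and none of 5 for gluconeogenesis and anaplerosis or of 4 regulators. The regulators had values of 0.16 for GCR1, -0.20 for GCR2, -0.27 for RAP1 and 0.85 ± 0.29 for TYE7 (edgeR adjusted p = 0.0663). None of these lists had a gene called in HH.

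The difference of the class effects, Hh minus HH, was tested in 1 fit of all 36 lines. None of the 9 genes passed, where 5.09% of 6370 genes did, 2.62% with a higher and 2.46% with a lower value in Hh. The higher share of these calls was 51.5%, and 13.7% with total-count scaling. TDH1 differed by 1.46 ± 0.50 (edgeR adjusted p = 0.0746), ENO1 by 1.32 ± 0.47 (edgeR adjusted p = 0.0853) and TDH3 by 1.201 ± 0.39 (edgeR adjusted p = 0.0597), while ENO2 was at 0.06 ± 0.60 and PYK2 at 0.10 ± 0.27. DESeq2 called TDH1, TDH3 and ENO1, limma-voom called TDH3, and leaving out single lines gave 0 to 3 calls (3 without Hh9). Without the libraries in doubt 135 genes passed. Total-count scaling moved the median over all genes to -0.18 and that of the 9 from 0.71 to 0.46.

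Paralog ratios were compared between classes by two-sided exact permutation over lines, for 5 pairs in each experiment, and none of the 10 passed after adjustment. In HH the log2 ratio of TDH1 to TDH2 was 2.71 ± 0.83 (SD, n = 10) in aneuploid and 3.65 ± 0.54 (n = 11) in euploid lines, a difference within name series of -0.62 (exact p = 0.0131, adjusted p = 0.0913). That of TDH2 to TDH3 was -2.47 ± 0.51 and -3.16 ± 0.51, a difference of 0.46 (exact p = 0.0183, adjusted p = 0.0913). Without HH119, 2 of the 10 pairs passed. Without the libraries in doubt none did, with differences of -0.56 for TDH1 to TDH2 and 0.46 for TDH2 to TDH3. For ENO1 to ENO2 the HH values were 1.67 ± 1.24 and 2.63 ± 0.62, with ranges of -0.51 to 3.06 and 1.48 to 3.19 that overlap (exact p = 0.180, adjusted p = 0.352). In Hh the ratio of CDC19 to PYK2 was 1.61 ± 0.59 in aneuploid and 0.65 ± 1.34 in 5 euploid lines (exact p = 0.0676, adjusted p = 0.225).

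Each line was also set against its ancestor in 1 fit of all libraries, over 6290 genes. HH108 was the only HH line with calls among the 9 genes. Its ENO2 had 21317, 16770.4 and 15089 CPM, its TDH2 5181, 9421 and 5538, its PGK1 7968, 10039.7 and 6907 and its PYK2 89.6, 121 and 119. All of these lie above every library of the run 1 ancestor. By edgeR 4 of the 9 were higher, where 17.2% of genes were higher and 34.5% changed in this line: ENO2 by 4.19 ± 0.98 (adjusted p = 5.52e-04), TDH2 by 2.48 ± 0.82 (adjusted p = 0.0135), PGK1 by 1.82 ± 0.71 (adjusted p = 0.0396) and PYK2 by 1.30 ± 0.30 (adjusted p = 5.18e-04). PCK1 in this line had 51.2, 130.5 and 71.7 CPM, near the run 2 ancestor. Over the 14 SC lines, TDH2, ENO2, TDH1, TDH3 and PGK1 were above the run 1 ancestor in all 14, with medians of 1.11, 1.23, 0.52, 0.58 and 0.73, and these lines share that ancestor. ENO1 and CDC19 were above it in 13 lines, GPM1 in 12 and PYK2 in 8. Over the 7 X lines, ENO2 was below the run 2 ancestor in 6 (median -1.62) and TDH2 in all 7 (median -1.20), and no gene of the 9 passed in any. TDH3 was above it in 2 X lines, and TDH1, PGK1, GPM1, ENO1, CDC19 and PYK2 in 1 each. Such counts were not made for all genes. Few genes of any kind changed in most of the other HH lines. The share was 6.3% in HH4, 6.12% in HH50, 3.66% in HH29, 2.23% in HH117 and 1.56% in HH112. It was 0.874% in HH88, 0.795% in HH5, 0.779% in HH28, 0.636% in HH1, 0.366% in HH9, 0.35% in HH7, 0.334% in HH123, 0.159% in HH119, 0.143% in HH3, 0.111% in HH15, 0.0318% in HH2, 0.0159% in HH11 and 0% in HH8, HH115 and HH152.

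Hh5 was the only Hh line with calls. Its ENO1 had 135, 402 and 401 CPM, its GPM1 16.3, 49.0 and 58.7, its CDC19 17.9, 36.5 and 32.6 and its PYK2 81.7, 72.8 and 59.2. The first 3 genes lie below every library of the Hh ancestor, and PYK2 overlaps with it. By edgeR 6 of the 9 were lower, where 7.5% of genes were lower and 17.9% changed in this line: ENO1 by 3.22 (-3.22 ± 0.73, adjusted p = 0.00101), GPM1 (-2.91 ± 0.77, adjusted p = 0.00475), TDH1 (-2.77 ± 0.84, adjusted p = 0.0143), CDC19 (-2.46 ± 0.78, adjusted p = 0.0198), TDH3 (-2.19 ± 0.64, adjusted p = 0.0113) and PGK1 (-2.07 ± 0.72, adjusted p = 0.0337). In the other Hh lines the share of genes that changed was 13.3% in Hh8, 6.71% in Hh3, 4.61% in Hh2 and 1.03% in Hh11. It was 0.413% in Hh77, 0.366% in Hh76, 0.35% in Hh61, 0.127% in Hh9, 0.111% in Hh18 and Hh49, 0.0795% in Hh4, 0.0477% in Hh1 and 0.0159% in Hh7 and Hh59. Without replicate 1 of the Hh ancestor 2 calls were left, and without replicate 1 or 3 of the run 1 ancestor 2 of the calls in SC lines were left.

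TDH3, ENO1, ENO2, CDC19 and PYK2 lie on a chromosome that the labels give as gained or lost whole in some line, and TDH1 and TDH2 lie on X, of which Hh76 gained a part. A gain from 2 to 3 copies corresponds to 0.58 on the log2 scale. ENO2 in HH108 (3 copies of VIII) was 3.15 ± 0.33 above the 9 euploid HH lines named SC (log2, SD over 3 colonies). The median gene of VIII was 0.60 above them. In the same colonies TDH2 was at 1.60 ± 0.52 and PGK1 at 1.08 ± 0.35, although X and III have 2 copies by the label. The slope of ENO2 on log2 copies was 4.97 ± 0.83 in HH, and 4.97 ± 0.69 without the libraries in doubt. HH108 is the only line with an altered VIII, so no p is given, and copy number cannot be told apart from anything else particular to that line. Over the genes of altered chromosomes, 27.4% of 2248 slopes in HH differed from 0 and 8.01% from 1. Those shares take VII of HH152 at its labelled 3 copies, although its level goes against the label. Without the libraries in doubt 1630 slopes in HH were left. HH152 was set against only the 2 euploid HH lines named X. In this line, where VIII is not labelled as altered but its median gene was at 0.54 ± 0.05, ENO2 was at 2.66 ± 0.63 and TDH2 at 1.76 ± 0.28. TDH3 (0.63 ± 0.21) and ENO1 (-0.05 ± 0.29) on VII, labelled with 3 copies, stood beside a median of -0.01 for that chromosome, and CDC19 (1.52 ± 0.42) on I beside 0.63.

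In Hh, TDH3 and ENO1 in Hh61 (3 copies of VII) were 2.53 ± 0.61 and 2.85 ± 0.73 above the euploid Hh lines, beside 0.57 for VII. TDH1 (2.101), TDH2 (2.15), ENO2 (2.46) and CDC19 (1.92) stood in the same colonies on chromosomes labelled with 2 copies. In Hh59, replicate 1, whose VII stood at 0.01, had ENO1 at 3.29, and replicates 2 and 3, whose VII stood at 0.57 and 0.58, had 2.23 and 1.40. The colony without the extra copy at RNA level was thus the highest of the 3. The slopes of TDH3 (2.26 ± 0.77, edgeR adjusted p = 0.0318) and ENO1 (2.65 ± 0.90, edgeR adjusted p = 0.0302) differed from 0, where 36.3% of 2966 genes did, and neither differed from 1, where 0.0337% did. Without the libraries in doubt 1184 of 2965 genes differed from 0 and 13 from 1. Neither slope passed without Hh59, without Hh61, without the libraries in doubt (1.98 and 2.17) or with limma-voom.

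For CDC19, in Hh7 and Hh18 (3 copies of I) it was at 1.62 ± 0.41 and 0.87 ± 0.72, beside 0.51 and 0.44 for I. The other members, PYK2 (0.48 and 0.01) apart, ran from 1.06 to 1.55 in Hh7 and from 0.14 to 0.81 in Hh18. In Hh11 (1 copy of I, 3 of XV) replicate 2 had a median of -1.08 for I and 1.16 for CDC19, and replicate 3 had -0.99 and 0.29. CDC19 was therefore not below the euploid lines in either colony that carried the loss at RNA level. It was below most other members, however. As means of 3 colonies of Hh11, CDC19 was at 0.56 and PYK2 at 0.39, while the others ran from 0.72 for ENO2 to 1.65 for GPM1. Whether the loss lowered CDC19 relative to these was not tested. The slope of CDC19 in Hh was 0.43 ± 0.65 (edgeR adjusted p = 0.621), and 0.34 ± 0.61 without the libraries in doubt. PYK2 in Hh11 was at 0.23 and 1.07 in replicates 2 and 3, beside 0.52 and 0.58 for XV. In Hh76 TDH1 was at 3.13 ± 0.88, with its 20 nearest genes at 0.48, and TDH2 at 1.35 ± 0.47, with its 20 nearest at 0.08, while ENO1 (2.25) and GPM1 (2.21) on unaltered chromosomes were between them. The 5 euploid Hh lines themselves ranged from -1.80 to 1.03 for ENO1 and from -1.49 to 1.13 for CDC19 around their mean. As means of 3 colonies, ENO1 in Hh61, Hh59 and Hh76 lay above that range, and so did ENO1 in Hh7 (1.55) and Hh11 (1.17). VII has 2 copies by the label in Hh76, Hh7 and Hh11. CDC19 lay above its range in Hh7, and also in Hh61 (1.92), Hh76 (1.85) and Hh59 (1.55), where I is labelled with 2 copies. ENO1 in Hh18 (0.50) and CDC19 in Hh18 (0.87) and Hh11 (0.56) lay within, although CDC19 in replicate 2 of Hh11 was above.

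**Figure D5:**
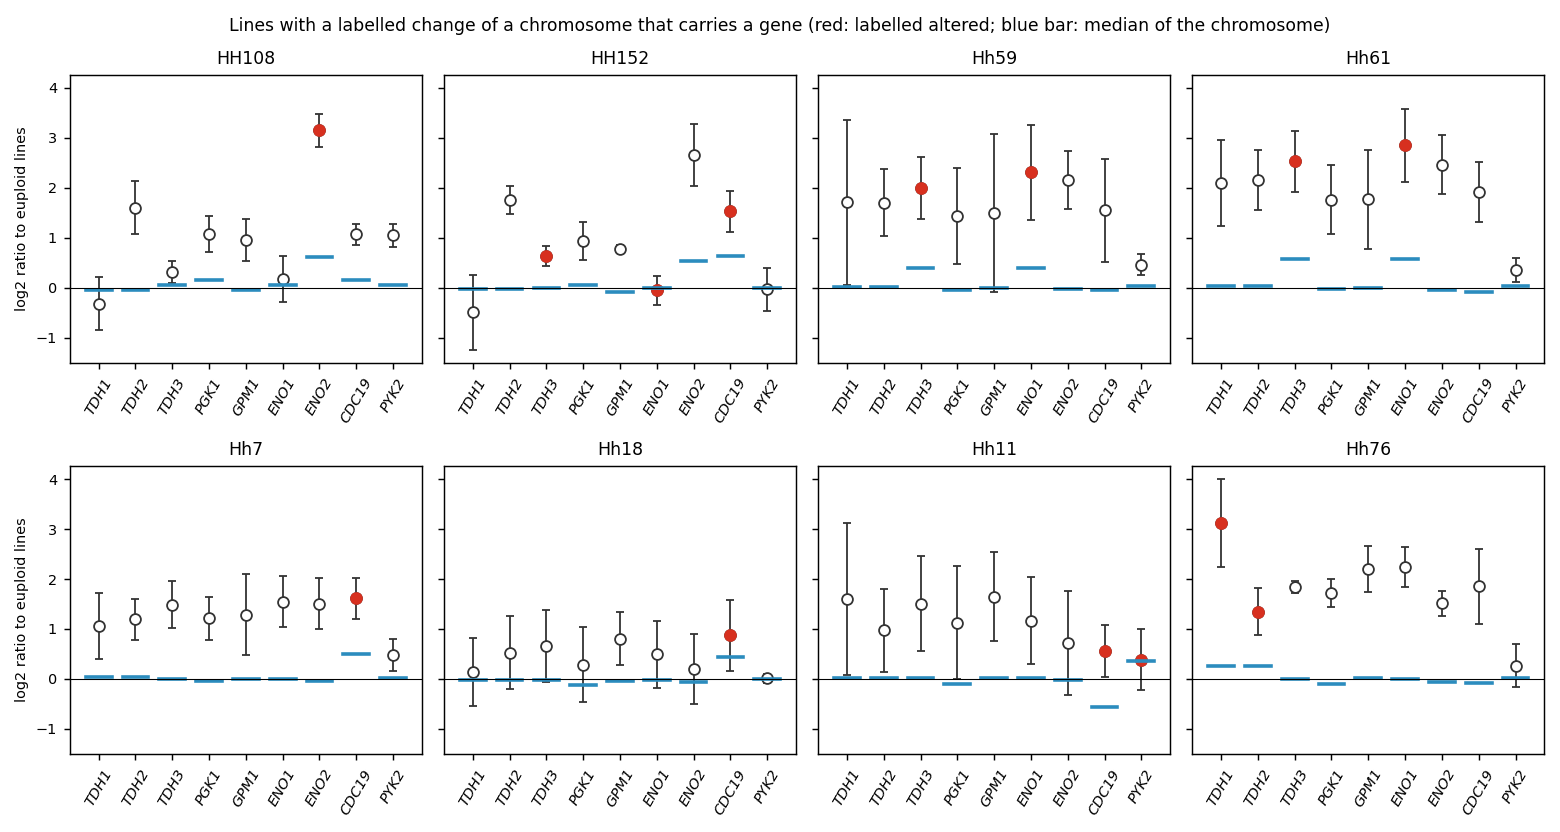
Log2 ratio of each gene to the euploid lines of its experiment and name series, as mean and SD of 3 colonies. The 8 lines shown have a labelled change of a chromosome that carries one of the genes. Red points are genes labelled altered and blue bars the median of the chromosome. Of 72 points, red or open, 68 lie above their bar, for example ENO2 in HH108 at 3.15 above 0.60. Points of a line share its colonies and its euploid lines, so they are not separate cases, and other genes were not counted.

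Across the 36 lines, taken as deviations of log2 CPM from the mean of their experiment and name series, the r between members ran from 0.47 to 0.96 among 8 of the genes and from -0.04 to 0.48 for PYK2 with them. Lines of 1 set share run and strain, so these Pearson r values over 6375 genes are a description. The genes most like PGK1 were GPM1 (r = 0.96), the feature YKL153W (0.90), which the R64 annotation used here does not list, and ENO1 (0.89). GPM1 had PGK1, FBA1 (0.92), which encodes the aldolase upstream, and YKL153W (0.91). TDH3 had ENO1 (0.91), PGK1 (0.89) and GPM1 (0.88), and ENO1 had TDH3, GPM1 (0.89) and PGK1. TDH1 had ENO1 (0.87), TDH3 (0.83) and FBA1 (0.82). TDH2 instead had ENO2 (0.91), CDC19 (0.90) and PGK1 (0.88), ENO2 had TDH2, GPD2 (0.87) and PGK1 (0.87), and CDC19 had TDH2, PGK1 (0.86) and GPM1 (0.84). TDH1 and ENO2 were the least alike of the 8, with r = 0.47. PYK2 had its highest r among members with ENO2 (0.48), and its nearest genes were PHR1, a photolyase (0.80), UBA1, the ubiquitin-activating enzyme (0.79), and RPT4, a proteasome subunit (0.76).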

How the data were processed

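RNA of 116 libraries was sequenced with a stranded kit in single-end reads of 75 bases, per the labels. The authors deposited counts of reads per gene (HTSeq 0.6.1pl) and FPKM (Cufflinks 2.2.1), with reads trimmed by Trim Galore 0.4.4 and aligned by TopHat2 2.1.1 to sacCer3, per the submitters' processing notes. No source used here gives the strand setting of the counting. Deposited counts were tested with edgeR 4.0.16 (quasi-likelihood, TMM, filterByExpr, adjusted over all genes tested, threshold 0.05) in R 4.3.3. Line was the unit for class comparisons, with the name series as covariate in HH, and single libraries for ancestors. DESeq2 1.42.0, limma 3.58.1, other scalings, no filter, leaving out lines and replicates, and leaving out libraries in doubt were alternatives. Scripts were tested on simulated data. For class comparisons, slopes and paralog ratios, p-values measure the spread between lines. Those for ancestors, and for lines against their ancestor, measure the spread between libraries, which are separate samples by the labels. Of all colony pairs, the closest differed by a chi-square per degree of freedom of 7.04. FPKM served for levels and as an alternative in the paralog ratios. Counts correlated best with their own FPKM column in 105 of 116 libraries, and the lowest r with the own column was 0.18. Named beside the 9 genes are the 3 genes most like each, pathway genes that passed a class comparison, and the regulators; others were chosen after their values were seen. Members and lists were chosen with earlier results of these data known. The labels hold 11 and 5 euploid lines, the series text gives 12 and 6. Descriptions of 2 HH2 libraries name other lines, and their titles were used.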

Additional observations from a re-analysis of the deposited data

Results flagged for a closer look

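TDH1 in the aneuploid Hh line Hh76 had 3821 CPM, far above the next of the 10 lines, with a gap of 0.469 of the whole range. Of 42 groups looked at, this was the 1 that was flagged. Chance flags about 1 group in 20, so 1 flag among 42 groups is no more than chance gives. The difference of the class effects, Hh minus HH, passed for GPM2 (0.97 ± 0.28, edgeR adjusted p = 0.0404) and for PDC5 (-1.32 ± 0.33, edgeR adjusted p = 0.0220), and for none of the 9 genes. Without the libraries in doubt neither passed (GPM2 0.91, edgeR adjusted p = 0.0903, and PDC5 -1.24, edgeR adjusted p = 0.0559).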

How the results depend on the processing

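Of the values for single genes and pairs under alternatives, 1575 kept direction and side of the threshold, 108 lost and 51 gained a call, and 33 changed sign. Of the counts, 294 stayed within 1.5 times and 64 did not. In Hh, 6 of the 9 genes were called by DESeq2, 6 by limma-voom, 0 without the libraries in doubt, 6 from single libraries and 7 with the replicate block added, and genes called were 1092 with DESeq2, 177 without the libraries in doubt, 917 from single libraries and 1055 with the replicate block. DESeq2 called 1 gene in HH. For the difference between experiments, DESeq2 called 3 of the 9 and 524 genes, limma-voom 1 of the 9, and 135 genes passed without the libraries in doubt. Slopes in Hh gave 0 calls among the 9 with limma-voom and 0 without the libraries in doubt. Signs changed in HH for TDH1 (0.21 in X lines alone), TDH3 (-0.13 without the series term, -0.16 in SC lines alone) and ENO1 (-0.11 and -0.077). With total counts they changed for ENO2 (-0.17) and PYK2 (-0.13) in the difference between experiments, PYK2 in the Hh ancestor (-0.086) and TDH1 between runs (0.24, and 0.000437 with no filter). By FPKM the log2 level of GPM1 over PGK1 was 1.64 in HH and 1.35 in Hh.

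Leaving out 1 line or library gave in Hh 0 to 7 of the 9 genes and 26 to 1547 genes, and for the difference between experiments 0 to 3 and 94 to 728, with ENO2 from -0.13 to 0.91 and PYK2 from -0.025 to 0.33. In HH it gave TDH3 from -0.056 to 0.10, ENO1 from -0.016 to 0.13 and PYK2 from -0.077 to 0.22. Between the runs it gave 4 to 8 of the 9, with TDH1 from -0.19 to 0.39. Calls against the ancestor were 2 to 3 in SC lines and 2 to 6 in Hh lines. Slopes gave 0 to 1 call in HH and 0 to 2 in Hh, with CDC19 from -0.019 to 0.68. Paralog pairs called were 0 to 2, with TDH1 to TDH3 in Hh from -0.0063 to 0.26. Where these values have a cause, the cause was not tested.

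Replicate numbers were not taken to pair colonies. The median correlation of same-numbered colonies was 0.00737 in SC, 0.388 in HH X and 0.161 in Hh lines, with lows of -0.66, -0.60 and -0.66, and 19 of 42, 18 of 21 and 31 of 45 libraries were most like their own number. Colonies of a line derive from 1 accumulated genotype, although replicate 1 of Hh11 and of Hh59 differed from the other colonies of its line in chromosome levels. The 5 euploid Hh lines limit the precision in Hh, and the shared stretches of paralogs limit that of TDH and ENO counts.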
